A study of Mus musculus with 9 samples.

Results

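Endothelial cells border on each other through junctions, and 9 genes that encode proteins of these borders were followed through the RNA of mouse lung endothelial cells (MLEC): Cdh5, Pecam1, Cldn5, Ocln, Tjp1, Esam, F11r, Jam2 and Jam3. Their rows were found by symbol. Each symbol named 1 locus, so the 9 genes stand for 9 of 33353 symbols with 1 locus in the deposited tables, and all 9 were among the 10605 genes that were tested. The study compared MLEC that lack JNK, a group of stress-activated protein kinases encoded by Jnk1 (Mapk8), Jnk2 (Mapk9) and Jnk3 (Mapk10), with control cells.

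There were 3 groups of 3 libraries, all from adult C57BL/6J mice of 10 to 12 weeks. ECtrl cells carried the Cdh5-Cre+ transgene on intact Jnk1+/+ and Jnk2+/+ alleles. EfCtrl cells were Cdh5-Cre- and had floxed alleles, Jnk1LoxP/LoxP and Jnk2LoxP/LoxP. E3KO cells had both the transgene (Cdh5-Cre+) and the floxed alleles (Jnk1LoxP/LoxP with Jnk2LoxP/LoxP). Every group was also Jnk3-/-, so none of the comparisons shows the effect of losing Jnk3. Cre was driven by the promoter of Cdh5, which is itself 1 of the 9 genes. A library came from a separate isolation that pooled the lungs of several mice, and the cells were selected with antibody to ICAM2 and cultured before RNA was taken.

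Adherens junctions hold neighbouring endothelial cells together through VE-cadherin, the Cdh5 protein, whose cytoplasmic tail binds catenins that connect to actin. Tight junctions seal the space between cells with claudins and occludin, and the scaffold ZO-1, the Tjp1 protein, ties these membrane proteins to the cytoskeleton. Platelet endothelial cell adhesion molecule (Pecam1), ESAM and the junctional adhesion molecules JAM-A (F11r), JAM-B (Jam2) and JAM-C (Jam3) are immunoglobulin superfamily proteins of the same borders that take part in adhesion and in the passage of leukocytes.

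Levels were deposited as FPKM, fragments scaled by the length of the transcript and by the fragments mapped in the library, so genes of different length could be compared within a library. The sum over all symbols was 656089 to 908401 FPKM in 8 libraries and 9841812 FPKM in the library labelled E3KO replicate 1, where the 10 highest symbols held 96.4% of the sum. Without symbols that averaged 5000 FPKM or more, the sums lay between 388537 and 433172 FPKM. In this same library Mapk8 was at 20.7 FPKM, above the 14.0 to 17.9 FPKM of the 6 controls, whereas it was at 8.77 and 4.65 FPKM in the other two E3KO libraries. Its Mapk8 level therefore went against its label, and the results of the 9 genes are given with and without it. Mapk9 was at 27.6, 35.1 and 20.7 FPKM in the E3KO libraries and at 42.7 to 50.9 FPKM in the controls, and Mapk10 was at 0 to 0.270 FPKM in all 9.

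The cells carried endothelial markers, with Kdr at 124 to 152 FPKM and Tek at 39.9 to 49.9 FPKM over the 9 libraries, but Vwf (von Willebrand factor) was at 0.356 to 2.15 FPKM. Of 10 endothelial markers 9 were tested, of which 6 had a lower and 3 a higher mean in E3KO. By limma 1 of them was called, beside 4.8% of all genes tested. This was Emcn (endomucin), at 973 ± 105 FPKM in the controls (SD, n = 6) and 1495 ± 55 FPKM in E3KO (SD, n = 3), a log2 difference of 0.63 (limma adjusted p = 0.026, and 0.054 without the library labelled E3KO replicate 1). Of 7 markers of lymphatic endothelium, from Lyve1 at 1513 FPKM or more to Ccl21a at 0.591 to 9.83 FPKM, 3 were lower in E3KO by limma (Prox1, Ccl21a and Reln) and 4 were not called, with log2 differences from -0.07 for Lyve1 to -0.58 for Mmrn1. Without the library labelled E3KO replicate 1, Prox1 and Reln were called and Ccl21a was not (limma adjusted p = 0.0638). Their summed level was 2467 to 3341 FPKM in the controls and 2275 to 2566 FPKM in E3KO. Of 10 leukocyte markers, 6 were tested, 6 of the 6 had positive log2 differences in E3KO and 0 were called by limma. At an unadjusted p under 0.05 there were 4, beside 23.8% of all genes tested. Without the library labelled E3KO replicate 1, Cd68 was called (log2 difference 1.24, limma adjusted p = 0.0261) and the other leukocyte markers tested were not. The 10 leukocyte markers summed to 73.1 to 260.4 FPKM in the controls and 213 to 324 FPKM in E3KO, and Ptprc, which defines leukocytes, stayed between 0.0919 and 1.59 FPKM. Of 12 fibroblast and smooth muscle markers, 6 were tested and 6 of the 6 had negative log2 differences in E3KO. By limma 0 of them were called and 3 had an unadjusted p under 0.05. The 12 markers summed to 13.3 to 82.2 FPKM in the controls and 12.5 to 26.2 FPKM in E3KO. The epithelial markers summed to 2.80 to 6.84 FPKM in the controls and 3.25 to 52.1 FPKM in E3KO. The highest sum was in the library labelled E3KO replicate 1, where Scgb1a1 alone was at 46.2 FPKM. The 6 platelet and megakaryocyte markers summed to 1.95 to 3.67 FPKM in the controls and 2.06 to 4.80 FPKM in E3KO, with Gp6 at 0 in all 9 libraries. The part of these lists in the results on junction genes was not tested. In bulk RNA, fewer cells of a type and less RNA per cell cannot be told apart.

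The 9 genes fell into 4 kinds in the comparison of E3KO with the mean of both controls. The tight junction genes Cldn5 and Ocln were lower in E3KO, with group means that fell to 52.3% and 44.0% of the control mean. Tjp1, the scaffold gene of the same junction, was 1.62-fold higher. Cdh5, Pecam1, Esam and F11r lay within 10% of the control mean, and the low-level gene Jam2 and the mid-level gene Jam3 were higher without passing the test. By limma with Benjamini-Hochberg adjustment over all 10605 genes, 3 of 9 junction genes were called at an adjusted p under 0.05, beside 4.8% of all genes tested. Of these 3, Ocln passed the filter on low values, a mean of 2 FPKM or more in at least 1 group, only through the controls. With a minimum of 5 FPKM only Cldn5 and Tjp1 were called, and without a filter 0 were called. Against ECtrl alone 0 of 9 were called (2.25% of all genes), and against EfCtrl alone 0 of 9 were called (0.952% of all genes). At an unadjusted p under 0.05 there were 4 of 9 against ECtrl (Cldn5, Ocln, Tjp1 and Jam2), beside 20.1% of all genes, and 4 of 9 against EfCtrl (Cldn5, Ocln, Tjp1 and Jam3), beside 17.7% of all genes. Jam2 passed the filter only through E3KO.

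**Figure D1:**
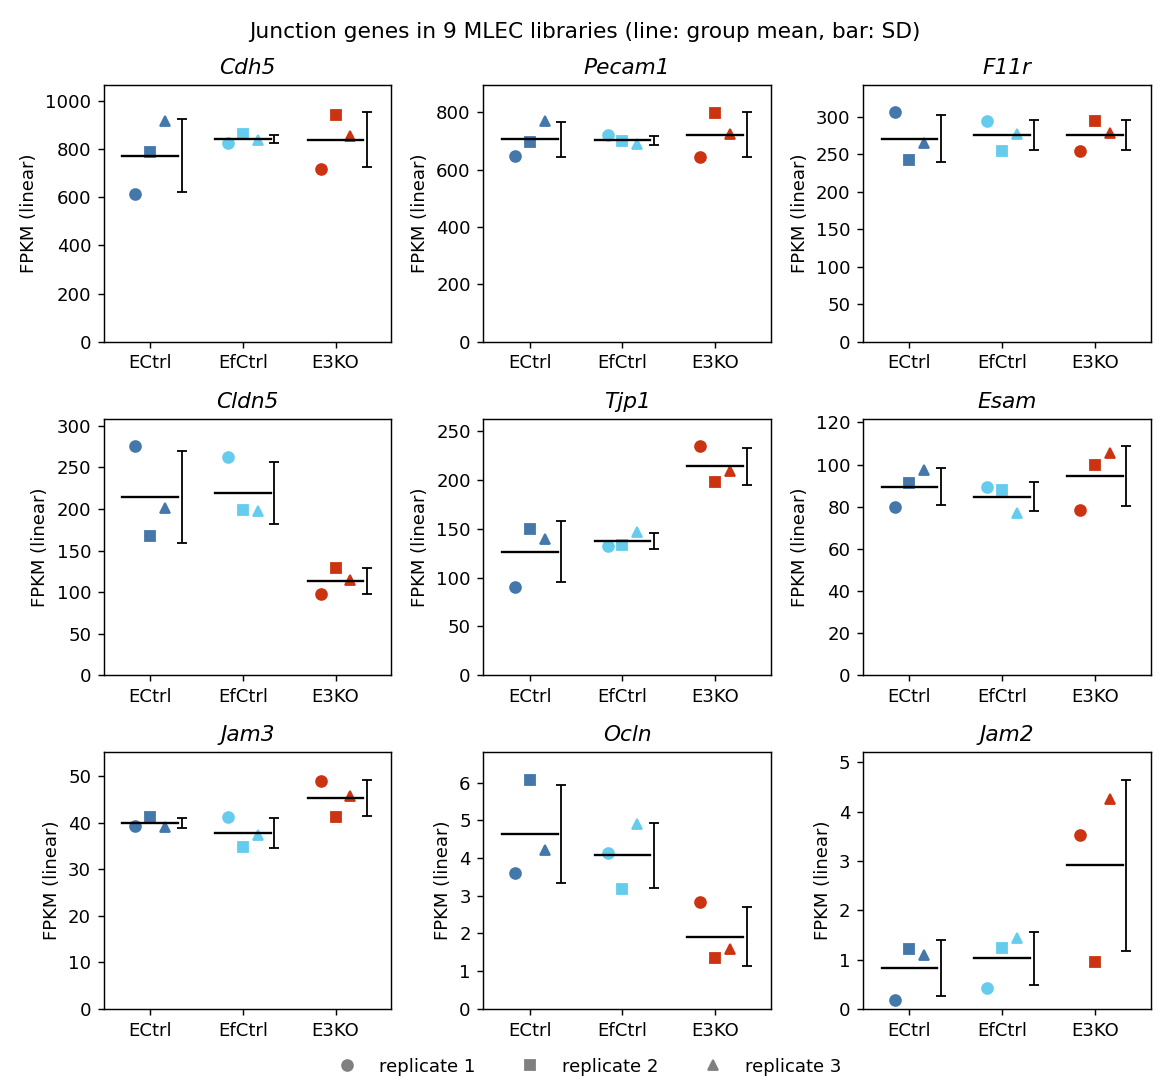
FPKM (linear axis from 0) of the 9 junction genes, in order of mean level, in the 3 libraries of ECtrl, EfCtrl and E3KO. Each symbol is 1 library, the line is the group mean and the bar its SD, and the E3KO symbols of Cldn5 and Ocln lie below every control while those of Tjp1 lie above every control.

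Claudin-5, the Cldn5 protein, is the main claudin of endothelial tight junctions. The gene lies at chr16:18776847-18778260 (mm10), where the annotation has no other gene. Its level in ECtrl was 275.8, 167.3 and 201.1 FPKM, in EfCtrl 262.9, 198.4 and 197.2 FPKM, and in E3KO 97.5, 128.6 and 114.5 FPKM. The highest E3KO library was 38.7 FPKM under the lowest control, so the groups did not overlap. Cldn5 fell by 0.92 on the log2(FPKM + 1) scale against the mean of the controls (SE 0.18, 95% interval -1.33 to -0.50, limma adjusted p = 0.0322). Its difference was -0.89 against ECtrl (adjusted p = 0.0675) and -0.94 against EfCtrl (adjusted p = 0.0769). The exact two-sided permutation p over the 3 E3KO and 6 control libraries was 0.0119, the smallest that these numbers allow. Without the library labelled E3KO replicate 1, which had the lowest Cldn5 of all 9 libraries, the limma difference was -0.81 with an adjusted p of 0.0704, and the exact permutation p for 2 against 6 was 0.0357, again the smallest possible.

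Occludin, encoded by Ocln (chr13:100496507-100552718), spans the membrane of tight junctions and is abundant in epithelia and brain endothelium. It was far lower than Cldn5 in these cells. ECtrl libraries held 3.60, 6.08 and 4.22 FPKM, EfCtrl libraries 4.14, 3.19 and 4.90 FPKM, and E3KO libraries 2.82, 1.35 and 1.58 FPKM. All E3KO values lay below all control values, and the library labelled E3KO replicate 1 came nearest to them. Ocln fell by 0.89 on the log2(FPKM + 1) scale (SE 0.20, 95% interval -1.36 to -0.42, limma adjusted p = 0.0491), a scale that understates changes of genes this low. Ocln passed the filter on low values through the control groups, since its E3KO mean was 1.92 ± 0.79 FPKM (SD, n = 3). The exact permutation p was 0.0119 with all 9 libraries. Without the library labelled E3KO replicate 1 the difference was -1.10 (limma adjusted p = 0.0315), and it was also called against ECtrl alone (-1.17, limma adjusted p = 0.0449). In the library labelled E3KO replicate 1 the epithelial markers Scgb1a1 (46.2 FPKM), Epcam (1.79 FPKM) and Sftpc (1.35 FPKM) were above every other library. Cldn18 was also highest there, at 0.0269 FPKM. The rest of the epithelial list was not, with Krt18 at 1.76 FPKM, Krt8 at 0.0895 FPKM, Cdh1 at 0.0441 FPKM and Cldn7 at 0 FPKM, besides Krt19, Cldn4, Sftpa1 and Sftpb. The part of epithelial RNA in its Ocln value was not tested.

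ZO-1, the Tjp1 protein, binds claudins, occludin and junctional adhesion molecules under the membrane. The deposited locus, chr7:65296165-65371239, leaves out the upstream portion of the annotated gene, which extends to position 65527781 in GENCODE release M21. Tjp1 was at 90.8, 149.5 and 139.2 FPKM in ECtrl, at 132.1, 132.9 and 146.7 FPKM in EfCtrl, and at 234.6, 198.2 and 208.6 FPKM in E3KO. ECtrl replicate 1 was the lowest, and even the lowest E3KO library exceeded the highest control by 48.7 FPKM. Tjp1 rose by 0.71 on the log2(FPKM + 1) scale (SE 0.16, 95% interval 0.34 to 1.08, limma adjusted p = 0.0475). The difference was 0.78 against ECtrl (adjusted p = 0.0693) and 0.63 against EfCtrl (adjusted p = 0.143). The exact permutation p was 0.0119 with all libraries and 0.0357 without the library labelled E3KO replicate 1, where the limma difference was 0.64 (adjusted p = 0.0984). That library had the highest Tjp1 of the 9. Another annotated gene on the same strand, Gm44794, lies within the deposited Tjp1 locus.

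The calls of these 3 genes lay close to the threshold. With the replicate number as a block none of the 3 was called, at limma adjusted p of 0.0715 for Cldn5, 0.107 for Ocln and 0.0943 for Tjp1. Without a filter on low values 0 of 9 were called, and without 1 library at a time 0 to 2 were called. Their direction against the controls was the same in every alternative that was run.

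**Figure D2:**
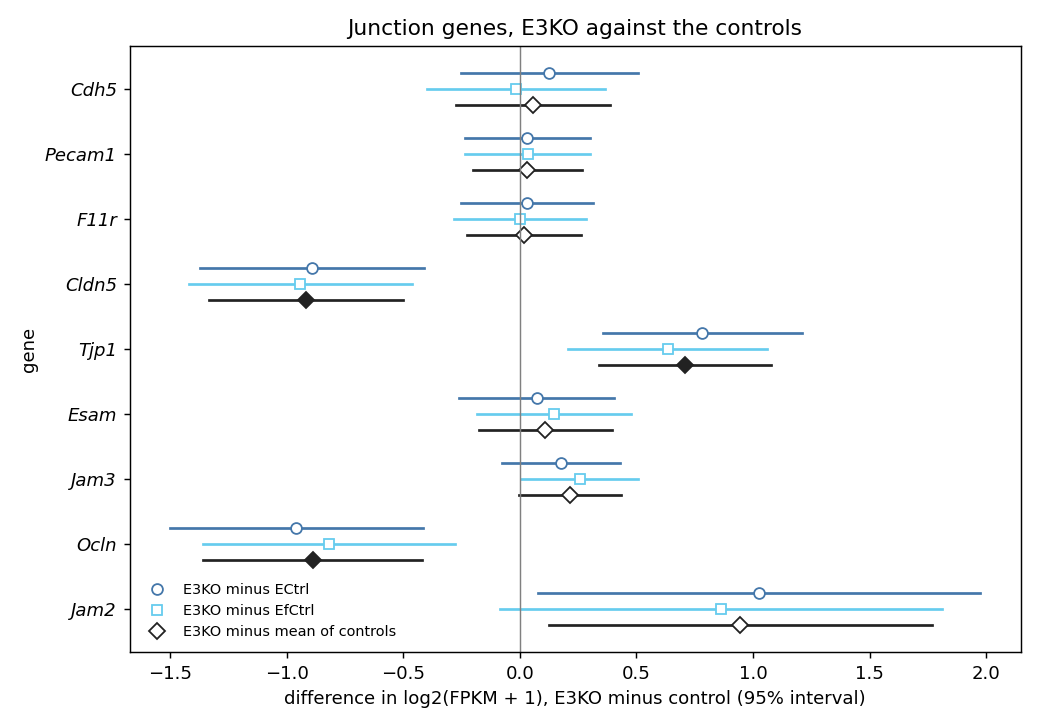
Difference in log2(FPKM + 1) of E3KO from ECtrl (circles), EfCtrl (squares) and the mean of both (diamonds) for each junction gene, with 95% intervals from limma and filled symbols for an adjusted p under 0.05. The intervals of Cldn5, Ocln and Tjp1 exclude 0 in all 3 comparisons, and the 3 filled symbols are those of the comparison with the mean of the controls.

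Cldn5 and Tjp1 changed places in the order of levels. In each of the 6 control libraries Cldn5 was higher than Tjp1, and in each of the 3 E3KO libraries it was lower. The ratio of Tjp1 to Cldn5 FPKM was 0.329, 0.894 and 0.692 in ECtrl and 0.503, 0.670 and 0.744 in EfCtrl. It was 2.41, 1.54 and 1.82 in E3KO, with the highest value in the library labelled E3KO replicate 1. As a ratio within a library it does not depend on how libraries were scaled. Within ECtrl, replicate 1 had the highest Cldn5 and the lowest Tjp1 of the 3 libraries, and within E3KO the library labelled replicate 1 had the lowest Cldn5 and the highest Tjp1. Relative to Cdh5, Cldn5 was at 0.212 to 0.450 in the controls and at 0.134 to 0.136 in E3KO.

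**Figure D3:**
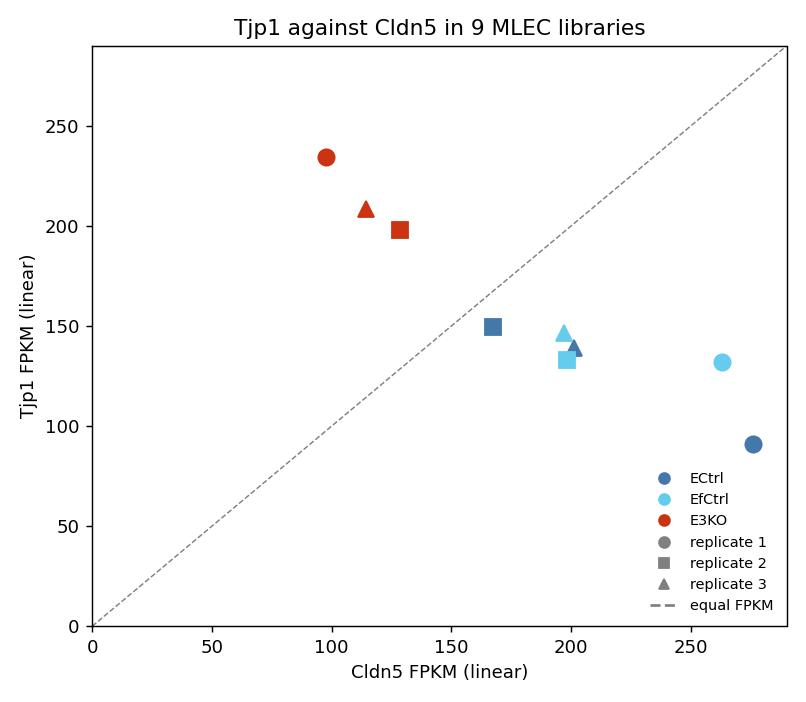
Tjp1 FPKM against Cldn5 FPKM (linear axes from 0) with 1 symbol per library, colours for the groups and shapes for replicate numbers. The 6 control libraries lie below the dashed line of equal FPKM and the 3 E3KO libraries above it, with Tjp1 to Cldn5 ratios of 1.54 to 2.41.

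The letters before the start site are shown for the 3 called genes and for F11r, a member whose level did not pass the test, because JNK is known to phosphorylate the AP-1 subunit c-Jun. RefSeq promoter windows on GRCm38.p6 of 250 bases before to 50 bases after the annotated start were held for 4 of the 9 genes, and Ocln had 2 start sites, of which the one that coincides with the start of the deposited locus is shown. Capitals mark every match on either strand to 5 short motifs. The binding site of AP-1 was searched as TGANTCA and the cAMP response element as TGACGTCA. The core of ETS factor sites was searched as CCGGAAG, and the other two motifs were the CCAAT box and the GC box, the latter with the letters GGGCGG. No matches overlap in these windows. The coordinates are chr16:18776597-18776896 on the + strand for Cldn5, chr13:100552669-100552968 on the - strand for Ocln, chr7:65371195-65371494 on the - strand for Tjp1 and chr1:171437311-171437610 on the + strand for F11r, each written 5′ to 3′ on the strand of the gene.
Cldn5: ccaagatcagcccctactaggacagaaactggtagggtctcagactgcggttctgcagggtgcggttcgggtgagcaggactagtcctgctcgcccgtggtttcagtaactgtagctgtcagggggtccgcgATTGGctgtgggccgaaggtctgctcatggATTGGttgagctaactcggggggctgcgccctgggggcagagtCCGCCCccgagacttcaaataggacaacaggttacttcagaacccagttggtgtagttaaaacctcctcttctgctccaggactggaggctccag
Ocln: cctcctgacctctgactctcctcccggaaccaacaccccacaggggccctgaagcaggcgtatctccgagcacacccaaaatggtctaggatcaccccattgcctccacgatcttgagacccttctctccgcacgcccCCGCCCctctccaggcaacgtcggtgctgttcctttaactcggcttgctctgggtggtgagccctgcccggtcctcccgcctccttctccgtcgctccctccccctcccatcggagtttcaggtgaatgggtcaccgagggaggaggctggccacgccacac
Tjp1: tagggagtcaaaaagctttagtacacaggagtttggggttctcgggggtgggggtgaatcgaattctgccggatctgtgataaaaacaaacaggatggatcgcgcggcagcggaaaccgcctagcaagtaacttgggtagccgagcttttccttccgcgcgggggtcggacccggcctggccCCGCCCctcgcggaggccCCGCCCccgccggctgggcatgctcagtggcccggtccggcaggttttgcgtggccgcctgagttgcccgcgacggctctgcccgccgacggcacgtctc
F11r: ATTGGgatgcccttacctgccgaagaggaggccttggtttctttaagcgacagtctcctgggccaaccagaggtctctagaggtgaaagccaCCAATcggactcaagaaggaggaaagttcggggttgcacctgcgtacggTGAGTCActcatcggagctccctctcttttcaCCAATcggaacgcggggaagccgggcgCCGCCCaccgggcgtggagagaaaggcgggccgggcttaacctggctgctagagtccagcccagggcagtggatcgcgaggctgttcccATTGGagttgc

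The Cldn5 window holds 2 CCAAT boxes and 1 GC box, the Ocln window 1 GC box and the Tjp1 window 2 GC boxes. The F11r window holds 1 AP-1 site, 4 CCAAT boxes and 1 GC box. Of all 32851 RefSeq windows of the same length, 7.81% held an AP-1 site, 1.79% a cAMP response element, 8.86% an ETS core, 35.7% a GC box and 37.4% a CCAAT box. The GC content was 58.3% for Cldn5, 64% for Ocln, 65.3% for Tjp1 and 60.3% for F11r, beside a median of 52.7% over all windows. A match to these letters is no evidence of binding, and the absence of a match says only that the letters are not in the window.

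VE-cadherin, the Cdh5 protein, is the defining cadherin of endothelium. Cdh5 (chr8:104101625-104144502) was the highest of the 9 genes and ranked 45 of 10605 by mean level. It was at 613, 788 and 916 FPKM in ECtrl, at 825, 860 and 838 FPKM in EfCtrl and at 716, 943 and 853 FPKM in E3KO. The widest spread was within ECtrl, and the groups overlapped. The difference from the mean of the controls was 0.05 on the log2 scale with a 95% interval of -0.27 to 0.38 (limma adjusted p = 0.836), and 0.16 without the library labelled E3KO replicate 1 (limma adjusted p = 0.563). An annotated antisense gene, Gm29682, overlaps its 5' end, and whether reads were assigned by strand is not given in the sources used here.

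Pecam1 (chr11:106654217-106750628), whose product binds itself across neighbouring cells, had the smallest coefficient of variation of the 9, 7.16% over the 9 libraries. ECtrl libraries were at 649, 696 and 771 FPKM, EfCtrl libraries at 721, 699 and 691 FPKM and E3KO libraries at 643, 798 and 725 FPKM. The lowest and the highest value both belonged to E3KO libraries. The log2 difference from the controls was 0.03 (95% interval -0.20 to 0.26, limma adjusted p = 0.866), and 0.11 without the library labelled E3KO replicate 1 (limma adjusted p = 0.534).

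ESAM, an adhesion molecule of endothelial tight junctions and platelets, was encoded by a gene of middle level among the 9 (chr9:37528078-37538319). Esam was at 79.8, 91.5 and 97.2 FPKM in ECtrl, at 89.6, 87.9 and 77.0 FPKM in EfCtrl and at 78.4, 99.6 and 105.6 FPKM in E3KO. The library labelled E3KO replicate 1 lay among the controls and the other two lay above all 6. The log2 difference was 0.11 (95% interval -0.18 to 0.40, limma adjusted p = 0.619), and 0.24 without the library labelled E3KO replicate 1 (limma adjusted p = 0.253).

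The 3 junctional adhesion molecule genes differed widely in level. F11r, which encodes JAM-A (chr1:171437535-171464603), was at 306, 243 and 265 FPKM in ECtrl, at 295, 255 and 278 FPKM in EfCtrl and at 255, 295 and 279 FPKM in E3KO. All 3 E3KO values lay inside the control range. Its log2 difference of 0.02 (95% interval -0.23 to 0.26, limma adjusted p = 0.937) was the nearest to 0 of the 9 genes, and it was 0.07 without the library labelled E3KO replicate 1 (limma adjusted p = 0.746).

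Jam3, which encodes JAM-C (chr9:27097385-27155421), was at 39.4, 41.2 and 39.2 FPKM in ECtrl and at 41.2, 34.8 and 37.5 FPKM in EfCtrl. It was at 49.1, 41.2 and 45.7 FPKM in E3KO, so that its 3 libraries lay above the 6 controls, but E3KO replicate 2 did so by only 0.0486 FPKM. The log2 difference was 0.22 (SE 0.10, 95% interval -0.0023 to 0.43) and was not called by limma (adjusted p = 0.214), while the exact permutation p was 0.0119. Without the library labelled E3KO replicate 1 the exact permutation p was 0.0714 and the log2 difference 0.16. An annotated antisense gene, Gm48796, lies within the Jam3 locus.

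Jam2, which encodes JAM-B (chr16:84774123-84825928), was the lowest of the 9. It was at 0.189, 1.21 and 1.09 FPKM in ECtrl, at 0.417, 1.23 and 1.43 FPKM in EfCtrl and at 3.52, 0.945 and 4.26 FPKM in E3KO. E3KO replicates 1 and 3 exceeded every control, whereas E3KO replicate 2 fell within the control range. Jam2 passed the filter on low values only through the E3KO group, where its mean was 2.91 ± 1.74 FPKM (SD, n = 3). The log2 difference of 0.94 (SE 0.36, 95% interval 0.12 to 1.77) was not called (limma adjusted p = 0.163), and the exact permutation p was 0.0714. Without the library labelled E3KO replicate 1 the difference was 0.78 (limma adjusted p = 0.321) and the exact permutation p was 0.214. An annotated rRNA gene on the same strand, Gm25908, lies within the Jam2 locus.

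In all, 4 of the 9 genes had E3KO libraries that did not overlap with the 6 controls, Cldn5 and Ocln below them and Tjp1 and Jam3 above, beside 16.6% of all genes tested. Of these, Ocln passed the filter on low values only through the controls. Over all genes such separation was more often downward, with 1216 genes below the controls and 549 above. The median log2 difference from the mean of the controls was 0.05 for the 9 genes and -0.08 for all 10605, and the median absolute difference was 0.22 and 0.21. Centring each library on its median added about 0.07 to every difference of E3KO, and left Cldn5 and Tjp1 called but not Ocln (limma adjusted p = 0.0783). Between the controls 0 of 9 genes were called by limma in EfCtrl against ECtrl, and 0 of 9 had an unadjusted p under 0.05, beside 195 of 10605 genes. With 3 libraries against 3 the exact permutation test cannot give a p below 0.1, and Cldn5, Ocln, Tjp1 and Jam3 reached 0.1 against each control.

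By mean level over the 9 libraries the order was Cdh5, Pecam1, F11r, Cldn5, Tjp1, Esam, Jam3, Ocln and Jam2, from rank 45 to rank 10458 of the 10605 genes tested. The mean log2(FPKM + 1) difference between neighbours exceeded its SD over libraries for all pairs except Cldn5 with Tjp1 (0.17, SD 0.92) and Ocln with Jam2 (0.89, SD 1.02). Cdh5 was above Pecam1 in 8 of 9 libraries, and Ocln was above Jam2 in 7 of 9, of which 6 were the control libraries. The largest step was that from Jam3 to Ocln, 3.28 on the log2 scale with an SD of 0.60.

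The genes whose levels followed each junction gene most closely were ranked by Pearson r of log2(FPKM + 1) over the 9 libraries, among all genes tested. For Cldn5 they were Ksr1 (r = 0.991), Csnk1e (0.990) and Fam189a2 (0.985), and for Tjp1 Klhl6 (0.988), Ces2g (0.983) and Plscr2 (0.983). Cdh5 was followed by Ubap2l (0.974), Pecam1 by Extl3 (0.963), Ocln by Sass6 (0.954) and Jam3 by Cyr61 (0.939). The r values describe 9 libraries that share the group differences and, for the highest among 10605 genes, are high by selection.

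Of 33 other junction and adhesion genes, 28 passed the filter on low values, 0 were called higher and 2 lower by limma in E3KO against the mean of the controls, and 6 had an unadjusted p under 0.05, beside 4.8% of all genes called and 23.8% at that unadjusted p. Their median log2 difference was -0.04, with a range from -0.89 to 0.66. Cxadr, which encodes the coxsackievirus and adenovirus receptor of epithelial and endothelial junctions, was at 21.9, 16.7 and 14.6 FPKM in ECtrl and at 16.2, 14.2 and 17.4 FPKM in EfCtrl. It was at 8.23, 9.31 and 8.08 FPKM in E3KO, all below the controls, and fell by 0.89 on the log2 scale (SE 0.14, limma adjusted p = 0.0161). It was called against ECtrl alone (limma adjusted p = 0.0286) but not against EfCtrl alone (0.0536), and without the library labelled E3KO replicate 1 the difference was -0.87 (limma adjusted p = 0.0344). Cdh13, which encodes the glycosylphosphatidylinositol-anchored T-cadherin, was at 111 ± 9 FPKM in the controls (SD, n = 6) and at 59.6, 83.4 and 63.3 FPKM in E3KO. It fell by 0.69 (SE 0.13, limma adjusted p = 0.0275), but was not called against ECtrl alone (0.0653), against EfCtrl alone (0.0667) or without the library labelled E3KO replicate 1 (-0.60, limma adjusted p = 0.0583).

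The catenins of the VE-cadherin complex were not called. Ctnnb1 (beta-catenin) was at 779 ± 35 FPKM in the controls (SD, n = 6) and at 850 ± 59 FPKM in E3KO (SD, n = 3), with a limma adjusted p of 0.415. Ctnna1 (alpha-catenin) was at 471 ± 25 FPKM and 533 ± 17 FPKM, so that its 3 E3KO libraries lay above all 6 controls, with a log2 difference of 0.18 (limma adjusted p = 0.246). Ctnnd1 (p120-catenin) was at 132 ± 6 and 135 ± 3 FPKM. Jup (gamma-catenin), named after its values were seen, went the other way. It was at 44.6 to 66.2 FPKM in the controls and at 30.8, 42.8 and 36.7 FPKM in E3KO, below all 6 controls. Its log2 difference was -0.53 (limma adjusted p = 0.12). Without the library labelled E3KO replicate 1 the log2 differences were 0.18 for Ctnnb1, 0.19 for Ctnna1, 0.03 for Ctnnd1 and -0.42 for Jup, and none was called. Icam2, whose product was used to select the cells, was at 187 ± 22 FPKM in the controls and 158 ± 7 FPKM in E3KO, a log2 difference of -0.24 that was not called (limma adjusted p = 0.25), and -0.26 without the library labelled E3KO replicate 1.

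Of 8 genes of the tight junction list that were tested, 4 had a positive and 4 a negative log2 difference. Mpdz, a scaffold with many PDZ domains, was at 31.6 to 39.6 FPKM in the controls and at 15.2, 27.7 and 25.1 FPKM in E3KO. Its log2 difference of -0.70 (SE 0.18) missed the threshold (limma adjusted p = 0.0662), and was -0.45 without the library labelled E3KO replicate 1 (limma adjusted p = 0.0642). Cgnl1, named after its values were seen, was at 31.1 to 54.6 FPKM in the controls and at 60.3, 79.1 and 78.1 FPKM in E3KO. Its log2 difference was 0.63 (limma adjusted p = 0.0843), and 0.76 without the library labelled E3KO replicate 1 (limma adjusted p = 0.0734). Cdh2, which encodes N-cadherin and belongs to the adherens junction list, was at 3.11 to 8.65 FPKM in the controls. In E3KO it was at 7.16, 11.9 and 13.6 FPKM, a log2 difference of 0.66 (SE 0.28, limma adjusted p = 0.199), and 0.91 without the library labelled E3KO replicate 1 (limma adjusted p = 0.119). The 5 genes under the minimum, named after their values were seen, were Tjp3, Cgn, Marveld3, Cldn3 and Cldn15, of which Cldn3 was listed at 0 in all 9 libraries.

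**Figure D4:**
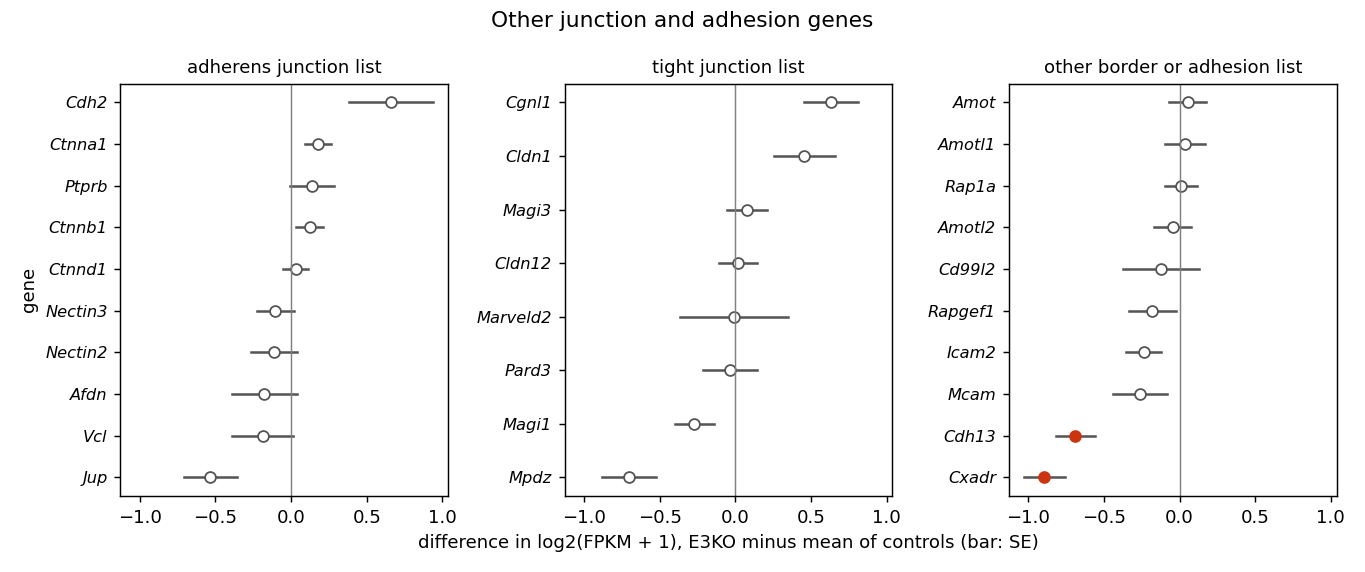
Difference in log2(FPKM + 1) of E3KO from the mean of the controls for the 28 other junction and adhesion genes that passed the filter, in 3 panels by list, with bars of 1 SE from limma. The filled symbols, Cxadr at -0.89 and Cdh13 at -0.69, are those with an adjusted p under 0.05.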

How the data were processed

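RNA of MLEC was sequenced from 3 groups of 3 libraries. Per the labels and the methods, the authors aligned reads to mm10 with TopHat2, estimated transcript levels with Cufflinks (version 1.0.3 in the submitters' processing notes), merged models with Cuffmerge and compared groups with Cuffdiff. The annotation they used and any use of strand are not given in the sources used here. The authors deposited FPKM per library and per group. Their fold changes, p-values and q-values are also in the 3 tables and were not used. The library means of the 9 genes were 81.9% to 96.1% of the authors' group FPKM, with 81.9% to 86.8% in E3KO, and the library values were used throughout.

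The 9 genes, the other gene lists and the tests were chosen with earlier results of these data known. Symbols shared by several loci (3749 loci) and 2 loci with no FPKM were left out. FPKM keep no fragment counts, so no counting error is given. The commonest ratio of low FPKM between libraries put depths at up to 1.71 times that of ECtrl replicate 2, but rested on 34 to 186 symbols.

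The 3 groups were modelled together in limma 3.58.1 under R 4.3.3, on log2(FPKM + 1) of single libraries, with default moderation. The 10605 genes tested averaged at least 2 FPKM in 1 or more groups. P-values were adjusted by Benjamini-Hochberg over all of them and called under 0.05. A fold change on this scale understates changes of low genes. On simulated data for E3KO against the mean of the controls, made from the 10605 genes with 200 of them changed, the fit called 97% of genes given a log2 change of 2, 78% of genes given a log2 change of 1 and 8 unchanged genes. Exact permutation tests were two-sided and ran over every split of the libraries compared. The 95% intervals used t quantiles from scipy 1.17.1. Libraries are separate isolations. The limma p-values weigh a group difference against the spread between libraries within groups, pooled over the 3 groups and moderated across genes. Exact permutation p-values give the share of splits with a difference at least as large as that observed.

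All 9 genes were named. Of the other list, the genes named were those called, the 4 highest, the 4 with the largest difference and, after their values were seen, the few marked as such. A further gene of that list is not reported here. Alternatives covered the pseudocount, the filter, centring, a replicate block, a mean-variance trend, only the groups compared and each library left out. Annotation was GENCODE release M21 and promoters came from RefSeq, both on the build of the files. No pairing is stated for equal replicate numbers.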

Additional observations from a re-analysis of the deposited data

How the results depend on the processing

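Counts over all genes varied more than the direction of the called junction genes. Junction genes called against the mean of the controls numbered 3, and 1 with a pseudocount of 0.1, 0 without the filter, 0 with the replicate block and 0 to 2 without 1 library at a time. Against ECtrl and EfCtrl they numbered 0, with 0 to 1 and 0 to 2 without 1 library (Ocln without the library labelled E3KO replicate 1, and Cldn5 and Tjp1 without ECtrl replicate 1). Calls over all genes against the mean of the controls numbered 509, with 202 under the replicate block and 9 to 408 without 1 library, lowest without E3KO replicate 3. Against ECtrl they numbered 239, with 95 without the filter, 1 under the block, 0 in a fit of only those groups and 0 to 215 without 1 library. Against EfCtrl they numbered 101, with 17 without the filter, 1 under the block and 1 to 218 without 1 library. Between the controls they numbered 0, with 0 to 4 without 1 library. The causes were not tested. Deviations of libraries from their group means correlated at -0.038 to 0.128 for equal replicate numbers and at -0.221 to 0.0812 for unequal ones. The highest values, 0.128 and 0.121, joined ECtrl and EfCtrl libraries of equal number. Whether equal numbers pair the libraries cannot be decided this way, because each group mean rests on only 3 libraries.

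Over all genes, 163 were called higher and 346 lower against the mean of the controls, and 209 and 268 after centring. Cldn5, Ocln, Tjp1, Jam2 and Jam3 kept their direction against ECtrl, EfCtrl and their mean in every alternative run, while small differences of other genes, and between the controls, changed sign. Centring turned Cdh5 against EfCtrl to 0.054 and Pecam1 between the controls to 0.0012. Without 1 library, log2 differences against the mean of the controls ran from -0.035 to 0.16 for Cdh5, -0.042 to 0.11 for Pecam1 and -0.031 to 0.073 for F11r. Against ECtrl they ran from -0.031 to 0.26 for Cdh5, -0.042 to 0.11 for Pecam1, -0.013 to 0.20 for Esam and -0.046 to 0.12 for F11r. Against EfCtrl they ran from -0.11 to 0.092 for Cdh5, -0.042 to 0.11 for Pecam1 and -0.053 to 0.059 for F11r. Between the controls they ran from -0.014 to 0.28 for Cdh5, -0.059 to 0.066 for Pecam1, -0.11 to 0.24 for Cldn5, -0.27 to 0.037 for Ocln, -0.073 to 0.28 for Tjp1, -0.048 to 0.12 for F11r and -0.12 to 0.40 for Jam2. Of the exact tests, 4 of 9 were under 0.05 with all libraries. They were those of Cldn5, Ocln, Tjp1 and Jam3, whose E3KO libraries did not overlap with the controls. Such separation held for 16.6% of all genes tested, and exact tests were not run over all genes. Without the library labelled E3KO replicate 1, 3 of 9 exact tests were under 0.05. This alternative was chosen after seeing the data, as was its use for the other genes named. In it Cdh13, Ccl21a, Emcn and Mapk9 lost their calls, the last with a limma adjusted p of 0.0359 before and 0.0642 after. Cd68 and Mapk8 were called only there (limma adjusted p = 0.0261 and 0.0298), and the Mapk8 level was a reason for leaving this library out. The FPKM hold no fragment counts per gene, so the low levels of Jam2 and Ocln carry no counting interval.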
